A study of Homo sapiens with 13 samples.

Results

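The genes followed here are 10 noncoding host genes of small nucleolar RNAs (snoRNAs): GAS5, SNHG1, SNHG3, SNHG5, SNHG6, SNHG7, SNHG8, SNHG12, SNHG15 and SNHG16. They were listed by name, with earlier results of these data known. They were found by Ensembl ID among the 63241 gene IDs of the count tables, so that they make up 10 of 63241. All 10 passed the filter on low counts and entered the tests, which covered 16756 genes.

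The RNA came from AC16, a human cell line derived from ventricular cardiomyocytes that were fused with fibroblasts. The 13 libraries fell into 4 groups by the treatment in the labels: 3 control, 3 FCCP, 4 preconditioning and 3 preconditioning+FCCP libraries. FCCP uncouples mitochondria by carrying protons across their inner membrane, and preconditioning refers to a light-driven mitochondrial construct named mOpto. The genotype of all groups is labelled wildtype, and the labels do not say which groups carried the construct or received light, nor give doses or times. Whether the replicates of a group are separate cultures is not stated, so p-values here reflect spread between libraries that may be technical.

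A snoRNA host gene is transcribed as a long precursor, and the snoRNAs are trimmed out of its introns after splicing. The spliced exons that are left over hold short reading frames that end early, so in most of these genes the spliced RNA is degraded by nonsense-mediated decay, a pathway that needs running translation. Several of the hosts also begin with a run of pyrimidines, the start shared by ribosomal protein mRNAs and known as a terminal oligopyrimidine (TOP) start. The snoRNAs guide chemical marks on ribosomal RNA: box C/D snoRNAs guide ribose methylation and box H/ACA snoRNAs guide pseudouridylation. GAS5, SNHG1, SNHG5, SNHG6 and SNHG16 host box C/D snoRNAs, SNHG3, SNHG7, SNHG8 and SNHG15 host box H/ACA snoRNAs, and SNHG12 hosts both kinds.

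RefSeq gives a promoter window for 8 of the 10 genes on GRCh38.p14. SNHG6 and SNHG15 had no entry. The 40 bases around the annotated start are shown for SNHG12, SNHG7 and SNHG8, the 3 genes that were higher in preconditioning+FCCP than in both preconditioning and control, for GAS5 and SNHG1, which were higher than in preconditioning and have no marked run, and for SNHG16, which was lower. Each stretch holds 20 bases before the start and 20 from it onward, and capitals mark a run of at least 5 C or T letters that opens with C and begins within 10 bases of the start.
SNHG12: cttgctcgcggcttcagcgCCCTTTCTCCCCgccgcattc
SNHG7: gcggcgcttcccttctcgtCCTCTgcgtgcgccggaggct
SNHG8: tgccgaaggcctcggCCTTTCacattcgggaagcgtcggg
GAS5: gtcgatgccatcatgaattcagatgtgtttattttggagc
SNHG1: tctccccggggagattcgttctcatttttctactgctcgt
SNHG16: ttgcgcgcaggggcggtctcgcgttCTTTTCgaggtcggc

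SNHG12 lies at chr1:28581854-28581893, SNHG7 at chr9:136728165-136728204, GAS5 at chr1:173869026-173869065 and SNHG1 at chr11:62855866-62855905, all on the minus strand. SNHG8 lies at chr4:118278742-118278781 and SNHG16 at chr17:76557744-76557783, both on the plus strand. These positions are those of the RefSeq table on its own build and not of the build used for counting. A run of the kind marked was present near the start of 5 of the 8 genes (SNHG5, SNHG7, SNHG8, SNHG12 and SNHG16) and of 31.4% of all 35116 windows of the table. The run of SNHG12 was 12 letters long and the others were 5 or 6. The letters TATAA, read on the transcribed strand of the whole 300-base window, stood in the windows of SNHG5, SNHG7, SNHG8 and SNHG12, 28 to 34 bases before the start, and in 14.8% of all windows at any position. CACGTG was found in the window of SNHG7 alone among the 8, against 7.26% of all windows. The annotated start of GAS5 in RefSeq lies upstream of the end of the gene in GENCODE 29, so its first transcribed base is uncertain. A match is only a description of these letters.

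Libraries held 14970803 to 20636229 gene counts. The share of multiply aligned reads parted the libraries into 2 sets: 7.13% to 11.5% in control 1 and 2, FCCP 1 to 3 and preconditioning+FCCP 3 (the higher-share set), and 3.16% to 5.22% in the other 7. All FCCP libraries were in the higher-share set and all preconditioning libraries in the lower, so between these groups set and treatment cannot be told apart. The sets were defined from the data, and values within them are given beside the results. The heart muscle marker TNNT2 had 0 counts in all libraries, and the 12 cardiomyocyte markers summed to 2.85 to 12.8 CPM, counts scaled to a common library size. The 8 fibroblast markers summed to 5922 to 11259 CPM in control, 6640 to 9558 in FCCP, 7185 to 7847 in preconditioning and 1814 to 3002 in preconditioning+FCCP libraries. Endothelial and immune markers summed to at most 5.87 and 1.38 CPM, with CD3E at 0 throughout. In bulk RNA, fewer cells of a type and less RNA per cell cannot be told apart.

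Exons of 6 of the genes overlap those of another gene in GENCODE 29: GAS5 with GAS5-AS1, SNHG6 with MCMDC2, SNHG7 with FAM69B, SNHG12 with TRNAU1AP and SNHG16 with AC015802.6 on the opposite strand, and SNHG3 with RCC1 on its own strand. Reads over several genes did not enter the counts. Without a stated strand setting, reads over bases shared by opposite-strand pairs may therefore have counted for neither gene. SNHG3 is uncertain in any setting, because reads it shares with RCC1 could count for neither. CPM are not divided by transcript length, so levels are compared between libraries and not between genes.

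The 10 genes took up 0.0701% ± 0.00494 of gene counts in control (SD, n = 3), 0.0916% ± 0.0217 in FCCP (SD, n = 3), 0.0374% ± 0.00351 in preconditioning (SD, n = 4) and 0.121% ± 0.0504 in preconditioning+FCCP libraries (SD, n = 3). The 4 preconditioning libraries, at 0.0343% to 0.0425%, lay below all the others. The preconditioning+FCCP libraries had 0.0765%, 0.111% and 0.176%, and overlapped the FCCP libraries at 0.0704%, 0.0907% and 0.114%. No test was run on this sum. Gene by gene, preconditioning libraries were mostly low and close together, and preconditioning+FCCP 3 was the highest of its group for 9 of the 10 genes, with SNHG8 the exception. In the FCCP group FCCP 1 was the highest for 7 genes. These 2 libraries also had more mitochondrial reads than the rest of their groups: 6.42% of gene counts in preconditioning+FCCP 3 against 1.33% and 2.32%, and 6.49% in FCCP 1 against 1.94% and 1.55%. Control 1 and 2 had 9.58% and 8.95%, control 3 3.00% and the preconditioning libraries 1.00% to 1.85%. The part of this share in the levels of the host genes was not tested.

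**Figure D1:**
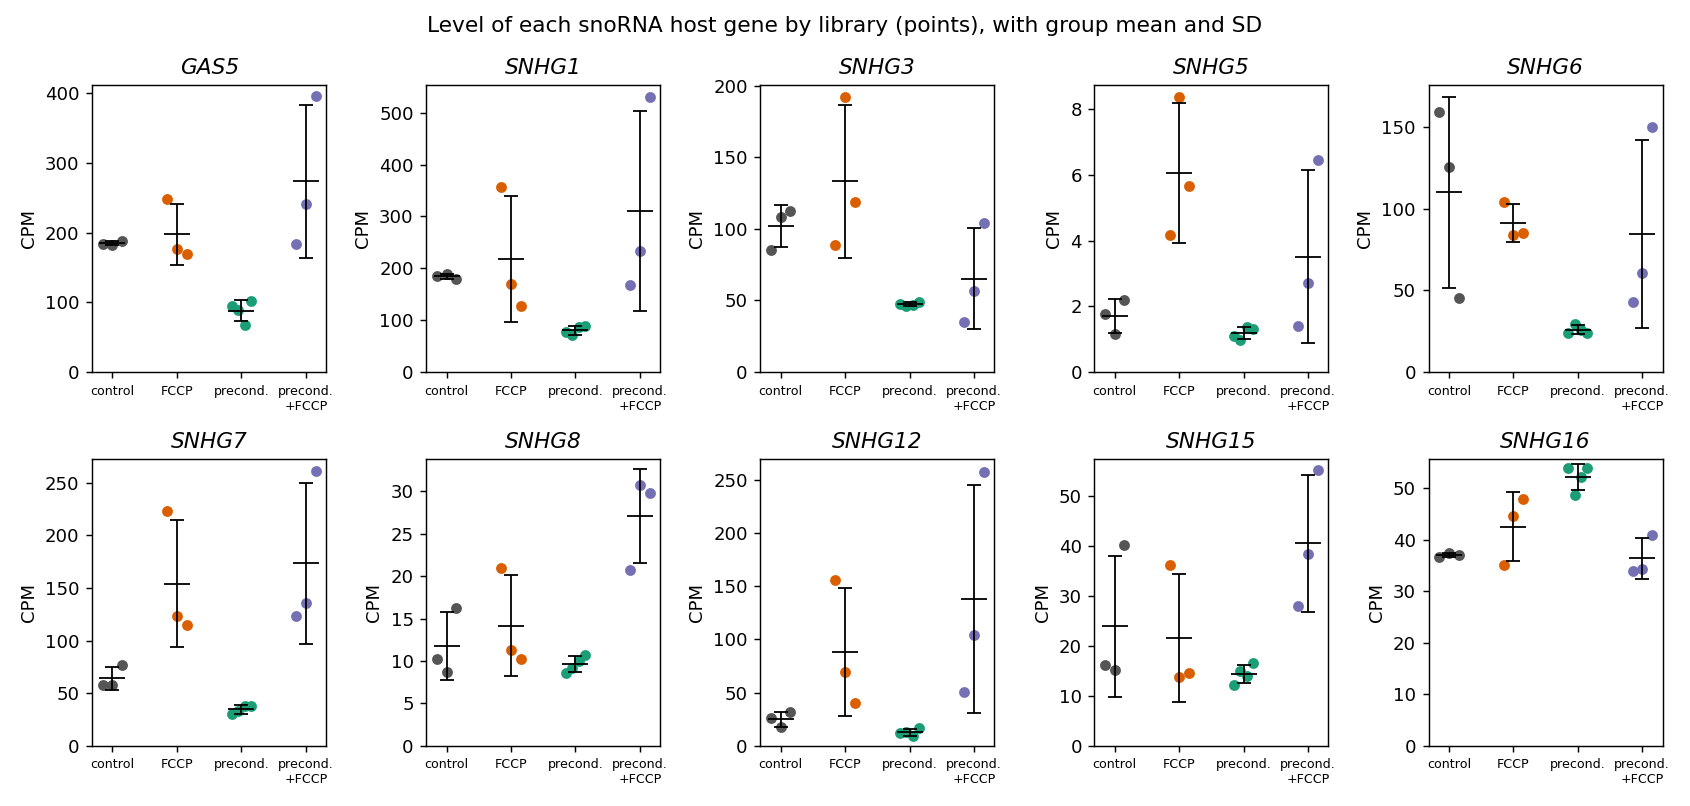
Level of each host gene in CPM (vertical axes, each from 0) in the 13 libraries (points), by treatment group (horizontal axis), with the group mean and SD in black. For 9 of the 10 genes the preconditioning group has the lowest mean, from 1.18 CPM for SNHG5 to 87.9 CPM for GAS5, and for SNHG16 it has the highest, 52.1 CPM.

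FCCP given to preconditioned cells was the contrast in which most of the host genes differed. Against preconditioning alone, 8 of the 10 were higher in preconditioning+FCCP, SNHG16 was lower and SNHG3 was not called. A gene is called at an adjusted p under 0.05 in edgeR's quasi-likelihood test, with Benjamini-Hochberg adjustment over all 16756 genes tested. By that rule 39.4% of all genes were called, 20.2% higher and 19.2% lower, so a call on its own is common here. The median log2 change of the 10 genes was 1.60, against 0.02 over all genes tested.

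SNHG12, host of box H/ACA snoRNAs and of the box C/D snoRNA SNORD99, had the largest change. It stood at 11.8, 13.2, 9.11 and 16.4 CPM in preconditioning and at 50.9, 104 and 257 CPM in preconditioning+FCCP libraries. The groups did not overlap, and the spread within preconditioning+FCCP was wide. The log2 change was 3.44 ± 0.49 (SE), an adjusted p of 0.000105. Without preconditioning+FCCP 3, its highest library, the log2 change was 2.59 with an adjusted p of 0.000561.

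SNHG7, host of SNORA17 and SNORA43 snoRNAs, had 29.8, 32.6, 38.2 and 37.8 CPM in preconditioning and 123, 136 and 261 CPM in preconditioning+FCCP libraries. Every preconditioning+FCCP library was more than 3 times as high as any preconditioning library. The log2 change was 2.32 ± 0.27 (SE) with an adjusted p of 2.63e-05, the smallest of the 10 genes in this contrast.

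GAS5, which carries box C/D snoRNAs in its introns and is named for its rise in growth-arrested cells, had 94.2, 88.7, 67.1 and 101.7 CPM in preconditioning and 184, 241 and 396 CPM in preconditioning+FCCP libraries. It rose by 1.64 ± 0.23 on the log2 scale (SE, adjusted p = 0.000105). SNHG1, which carries a cluster of box C/D snoRNAs, had 76.8, 70.9, 85.9 and 89.3 CPM against 169, 233 and 530.5 CPM and rose by 1.94 ± 0.35 (SE, adjusted p = 0.000561). For both genes the lowest preconditioning+FCCP library was above the highest preconditioning library.

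SNHG6, host of SNORD87, rose by 1.71 ± 0.38 (SE), from 23.7, 29.7, 25.9 and 24.1 CPM to 42.7, 60.8 and 150.3 CPM. SNHG8, host of SNORA24, had 8.58, 9.15, 10.1 and 10.8 CPM in preconditioning and 20.7, 30.7 and 29.8 CPM in preconditioning+FCCP libraries. It rose by 1.49 ± 0.27 (SE, adjusted p = 0.000698). Of the 8 genes that rose, SNHG8 was the one whose preconditioning+FCCP libraries lay closest together in proportion, and its highest was not preconditioning+FCCP 3.

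SNHG15, host of SNORA9, rose by 1.49 ± 0.37 (SE), with 12.1 to 16.5 CPM in preconditioning and 28.0, 38.3 and 55.1 CPM in preconditioning+FCCP libraries. SNHG5, host of SNORD50 snoRNAs, had only 1.09, 0.966, 1.36 and 1.30 CPM against 1.39, 2.71 and 6.44 CPM, with a log2 change of 1.57 ± 0.45 (SE, adjusted p = 0.0122). The 2 groups of SNHG5 nearly touched, and without preconditioning+FCCP 3 its log2 change was 0.78 and the call was lost, with an adjusted p of 0.158.

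SNHG16, host of the SNORD1 snoRNAs, went the other way. It had 53.8, 48.6, 52.2 and 53.9 CPM in preconditioning and 33.9, 34.4 and 41.0 CPM in preconditioning+FCCP libraries, and fell by 0.52 on the log2 scale (SE 0.15, adjusted p = 0.0152). The groups did not overlap, but the call was lost with library totals as the only scaling, with no filter on low counts and without preconditioning+FCCP 2. Across all 13 libraries SNHG16 varied by a factor of 1.59 between its highest and lowest library, against 28.2 for SNHG12. SNHG3, host of the SNORA73 pair, had 47.5, 45.9, 46.6 and 49.1 CPM against 35.0, 56.5 and 104 CPM. Its preconditioning+FCCP libraries lay on both sides of the preconditioning ones, and the log2 change was 0.46 ± 0.30 (SE, adjusted p = 0.227).

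The groups did not overlap for 8 members that were higher and 1 that was lower. Over all genes tested, 26.6% did not overlap and were higher and 26.2% did not overlap and were lower. Within the lower-share set (preconditioning+FCCP 1 and 2 against the 4 preconditioning libraries) the calls among members numbered 8. In that fit 9097 of 17481 genes were called. There the log2 change was 2.62 for SNHG12, 1.90 for SNHG7, 1.32 for SNHG1, 1.28 for GAS5, 1.42 for SNHG8, 1.21 for SNHG15, 1.01 for SNHG6 and -0.61 for SNHG16, while SNHG5 at 0.82 was not called. Fibroblast markers moved with this contrast: 7 of 8 were lower in preconditioning+FCCP, COL1A1, a collagen chain, by -2.59 on the log2 scale. Their part in the changes of the host genes was not tested.

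**Figure D2:**
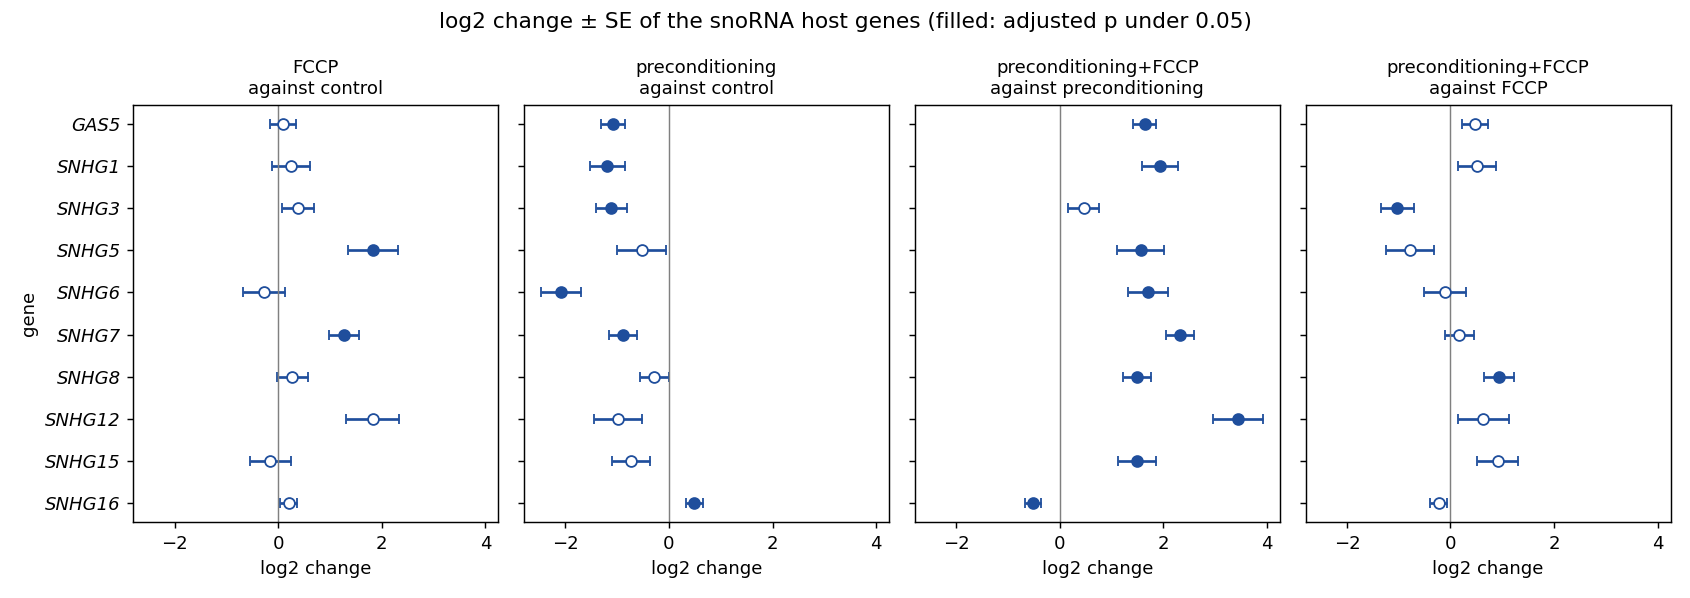
log2 change with its SE (horizontal axes) of each host gene (rows) in 4 comparisons, with filled points for adjusted p under 0.05 and open points for the others. In preconditioning+FCCP against preconditioning 9 of 10 points lie right of 0, up to 3.44 for SNHG12, and in preconditioning against control 9 of 10 lie left of 0, down to -2.09 for SNHG6.

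Preconditioning without FCCP went with lower host gene levels than in control libraries. GAS5, SNHG1, SNHG3, SNHG6 and SNHG7 were lower and SNHG16 was higher, while SNHG5, SNHG8, SNHG12 and SNHG15 were not called. Of all genes tested, 23.6% were called, 13% lower and 10.5% higher. The median log2 change was -0.94 for the 10 genes and -0.02 for all genes tested.

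GAS5 had 184, 182 and 188 CPM in control libraries, all above the highest preconditioning library as for 17.3% of all genes, and fell by 1.07 on the log2 scale (SE 0.23, adjusted p = 0.00562). SNHG1 was as tight in control, at 185, 189 and 179 CPM, and fell by 1.19 (SE 0.34, adjusted p = 0.0221). For these 2 genes the SD of the 3 control libraries was 2.95 and 4.99 CPM.

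SNHG3 had 85.3, 108 and 113 CPM in control and fell by 1.11 (SE 0.30, adjusted p = 0.0154). SNHG6 had 159, 125 and 45.4 CPM in control and fell by 2.09 (SE 0.39, adjusted p = 0.00302). The third control library, the only one of the lower-share set, was far below the other 2 for SNHG6. SNHG7 had 58.2, 57.3 and 76.8 CPM and fell by 0.89 (SE 0.27, adjusted p = 0.0263).

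SNHG16 was at 36.6, 37.5 and 37.0 CPM in control, below every preconditioning library as for 19.4% of all genes, and rose by 0.49 ± 0.16 (SE, adjusted p = 0.0316). SNHG12 had 25.9, 17.5 and 31.7 CPM in control, also without overlap, with a log2 change of -0.99 ± 0.47 (SE, adjusted p = 0.136). SNHG8 had 10.3, 8.74 and 16.3 CPM and SNHG15 16.2, 15.2 and 40.1 CPM, and both overlapped the preconditioning libraries.

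Within the lower-share set, where control 3 is the sole control library and is assumed to vary like the other group, 9 members were called, beside 3484 of 17481 genes in that fit. With a single control library, treatment and the state of that library cannot be told apart in these calls. SNHG6 differed by -0.81 there, less than its pooled -2.09, and SNHG12 and SNHG15 by -1.32 and -1.47. With the library set as a term in the fit of all libraries only SNHG6 was called, at -0.85, and GAS5 had -0.80 with an adjusted p of 0.079. In that fit 459 of 16756 genes were called, against 3950 in the main fit. The count of called members was 3 without control 1, 2 without control 2, and 3 without preconditioning 1 or preconditioning 2, and GAS5 and SNHG6 were called in each of these. Over all genes, 1506 of 17360, 1911 of 17401, 2300 of 16718 and 2406 of 16712 were called in these fits, in that order.

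FCCP without preconditioning gave 2 calls among the host genes. Of all genes tested, 3.52% were called, 1.6% higher and 1.92% lower, and of the 10 genes SNHG5 and SNHG7 were higher and the other 8 were not called. The median log2 change of the 10 was 0.26, against -0.04 over all genes.

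SNHG7 had 223, 123 and 115 CPM in FCCP libraries, all above the 57.3 to 76.8 CPM of control, and rose by 1.26 ± 0.29 (SE, adjusted p = 0.0293). SNHG5 had 4.16, 8.36 and 5.66 CPM against 1.78, 1.15 and 2.19 CPM and rose by 1.83 ± 0.48 (SE, adjusted p = 0.0493), just inside the threshold. SNHG12 had 155.9, 69.6 and 40.3 CPM, also without overlap with control, and a log2 change of 1.82 ± 0.51 (SE), with an adjusted p of 0.0594 just outside it.

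The groups of these 3 genes did not overlap, as for 8.84% of all genes in that direction. GAS5 had 248, 176 and 169 CPM and SNHG1 356, 170.2 and 128 CPM in FCCP libraries, on both sides of their control levels, with log2 changes of 0.10 ± 0.25 and 0.24 ± 0.37 (SE). In both genes FCCP 1 stood above and the other 2 FCCP libraries below control. SNHG3, SNHG6, SNHG8, SNHG15 and SNHG16 had log2 changes from -0.27 (SNHG6) to 0.38 (SNHG3), with overlapping groups.

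These 2 calls rest on small margins. Within the higher-share set (control 1 and 2 against FCCP 1 to 3) SNHG7 differed by 1.47 and SNHG5 by 2.08, neither called (adjusted p = 0.107 and 0.110). The number of called members was 0 without control 1, control 2, FCCP 2 or preconditioning 2. It was 1 without FCCP 1, FCCP 3, preconditioning 1, 3 or 4, or preconditioning+FCCP 2, and 0 with the control and FCCP libraries fitted alone. Over all genes, 590 of 16756 were called in the main fit, 31 of 17819 within the higher-share set and 17 of 15273 with the 2 groups alone. Without control 1, control 2, FCCP 2 and preconditioning 2 it was 337, 328, 142 and 257. It was 893 without FCCP 1 and 185 to 376 in the other fits with 1 called member, with 16639 to 17508 genes tested.

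Against control, preconditioning+FCCP libraries held more SNHG12, SNHG7 and SNHG8. SNHG12 rose by 2.46 ± 0.52 (SE, adjusted p = 0.00316), SNHG7 by 1.44 ± 0.29 (SE, adjusted p = 0.00259) and SNHG8 by 1.21 ± 0.30 (SE, adjusted p = 0.00733). These 3 were also the members whose groups did not overlap, as for 19.4% of all genes in that direction. Of all genes, 31.2% were called in this comparison, 15% higher and 16.2% lower. The median log2 change was 0.76 for the 10 genes and -0.04 over all genes.

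GAS5, with 0.57 ± 0.25 (SE, adjusted p = 0.0928), and SNHG1, with 0.75 ± 0.37 (SE, adjusted p = 0.131), did not pass the test. In each of them preconditioning+FCCP 1 lay among or below the control libraries and preconditioning+FCCP 3 was more than 2 times as high as any. Within the higher-share set (preconditioning+FCCP 3 alone against control 1 and 2) SNHG12, SNHG7 and SNHG8 differed by 3.61, 2.22 and 1.69, and within the lower-share set (preconditioning+FCCP 1 and 2 against control 3) by 1.30, 0.76 and 0.67. Each of these 2 fits has a lone library on 1 side, assumed to vary like the others, so no calls are given for them. The count of called members was 5 without preconditioning+FCCP 1, beside 3773 of 17458 genes, and GAS5 and SNHG5 were also called higher. It was 5 without preconditioning+FCCP 3 too, beside 5298 of 17356 genes, but there the added calls, SNHG3 and SNHG6, were lower.

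Preconditioning+FCCP and FCCP libraries, the pair that differ by preconditioning under the stressor, gave 2 calls among the host genes. SNHG8 was higher, by 0.93 ± 0.30 (SE, adjusted p = 0.0228), and SNHG3 was lower, by -1.03 ± 0.32 (SE, adjusted p = 0.0211), with overlapping groups in both. Of all genes tested 35.7% were called, 17.9% higher and 17.7% lower, and the other 8 members were not called. The median log2 change was 0.32 for the 10 genes and 0.01 for all genes. SNHG8 had 21.0, 11.3 and 10.2 CPM in FCCP libraries, and SNHG3 had 88.5, 192 and 118 CPM.

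These calls were not kept without every library. Without FCCP 1 the count of called members was 5, without FCCP 3 or preconditioning+FCCP 1 it was 1, and without FCCP 2 or preconditioning+FCCP 2 it was 0. Over all genes 5976 were called in the main fit and 6943 without FCCP 1. Calls fell to 3848 and 4421 without FCCP 3 or preconditioning+FCCP 1, and to 3964 and 3910 without FCCP 2 or preconditioning+FCCP 2. Without preconditioning+FCCP 3 the count of called members was 2, beside 6161 genes. There SNHG8 at 0.84 was no longer called (adjusted p = 0.0614) and SNHG5 at -1.56 was. Within the higher-share set, with preconditioning+FCCP 3 alone against the FCCP libraries, SNHG8 differed by 1.06 and SNHG3 by -0.35. With a lone library on 1 side, no calls are given for that fit. SNHG6 had a log2 change of -0.11 over all libraries, 0.71 within that set and 0.76 with the set as a term (adjusted p = 0.0187).

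The 2 single treatments stood far apart. FCCP against preconditioning libraries gave higher levels for 7 members, GAS5, SNHG1, SNHG3, SNHG5, SNHG6, SNHG7 and SNHG12, with log2 changes from 1.17 ± 0.23 (GAS5) to 2.81 ± 0.48 (SNHG12) and no overlap between the groups, as for 23.3% of all genes in that direction. Of all genes 39.1% were called, 19.7% higher and 19.4% lower. SNHG16 lay lower in FCCP without overlap, as 26.3% of all genes did, at -0.29 ± 0.15 (SE, adjusted p = 0.139). No library set holds both groups. With the set as a term only SNHG7 was called, at 1.84 with an adjusted p of 0.026. In that fit 353 of 16756 genes were called, against 6545 in the main fit. This comparison, the one of preconditioning+FCCP with preconditioning and the one of preconditioning with control share the preconditioning libraries, so their values are not independent.

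The effect of FCCP differed with preconditioning for 6 of the 10 genes. The interaction, the FCCP effect with preconditioning minus the effect without it, was 1.54 ± 0.34 for GAS5 (SE, adjusted p = 0.0065), 1.70 ± 0.51 for SNHG1 (SE, adjusted p = 0.0295) and 1.98 ± 0.56 for SNHG6 (SE, adjusted p = 0.0235). SNHG15 had 1.64 ± 0.55 (SE, adjusted p = 0.0462), SNHG8 1.22 ± 0.40 (SE, adjusted p = 0.0455) and SNHG16 -0.72 ± 0.23 (SE, adjusted p = 0.0369). Over all genes 19% were called, 9.38% higher and 9.6% lower.

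SNHG7 and SNHG12, with FCCP effects of 2.32 and 3.44 with and 1.26 and 1.82 without preconditioning, had interactions of 1.06 ± 0.39 (SE, adjusted p = 0.068) and 1.62 ± 0.68 (SE, adjusted p = 0.104). SNHG3 and SNHG5 had 0.08 ± 0.43 and -0.26 ± 0.66 (SE). In a fit with a term for the library set the interaction was 1.51 for GAS5, 1.61 for SNHG1, 1.61 for SNHG6, 1.21 for SNHG8, 1.63 for SNHG15 and -0.72 for SNHG16, all called. That fit called 4504 of 16756 genes, against 3180 in the main fit. Leaving out single libraries moved the count of called members between 1 and 8. It was 1 without FCCP 2 or FCCP 3, 2 without control 1, preconditioning 1, preconditioning 2 or preconditioning+FCCP 3, and 3 without control 2, preconditioning 3, preconditioning 4 or preconditioning+FCCP 2. Over all genes 2013 to 2839 were called in these fits, with 16639 to 17406 tested. GAS5 was called whichever library was left out, with 1.16 to 1.75.

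The order of the groups was not the same for every gene. By mean CPM, GAS5 and SNHG1 ran from preconditioning through control and FCCP to preconditioning+FCCP, and only the step from preconditioning to control passed the test. SNHG3 ran from preconditioning through preconditioning+FCCP and control to FCCP, and no neighbouring pair passed the test. SNHG5 ran from preconditioning through control and preconditioning+FCCP to FCCP, again with no neighbouring pair past it. SNHG16 alone had preconditioning as its highest group. Steps between neighbouring groups also passed the test in SNHG7 (preconditioning to control, and control to FCCP), SNHG6 (preconditioning to preconditioning+FCCP) and SNHG8 (FCCP to preconditioning+FCCP). In SNHG12, SNHG15 and SNHG16 no such step passed.

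Over the 13 libraries, profiles were compared by the root mean square difference of log2 CPM, each gene centred on its own mean, against 9673 genes of at least 10 mean CPM. The gene outside the 10 nearest to SNHG1 was ATF4, which codes for a stress-induced transcription factor, at 0.21. SNHG12 was nearest to ATF3, another transcription factor gene of that kind, at 0.37, SNHG15 to GADD45A, a stress-response gene, at 0.24, and SNHG7 to EPB41L4A-AS1, itself a noncoding snoRNA host, at 0.28. GAS5 was nearest to CROCCP2 at 0.14, SNHG8 to TYW1B at 0.13, SNHG6 to PFDN2 at 0.21, SNHG3 to REX1BD at 0.27, SNHG5 to VAMP1 at 0.42 and SNHG16 to NUP93 at 0.13. Among the 10, SNHG8 and SNHG15 were the closest pair at 0.26 and GAS5 and SNHG1 next at 0.28, while SNHG12 and SNHG16 were the farthest apart at 1.60.

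Of 25 snoRNA genes that GENCODE 29 places inside these hosts, all had a row in the count tables and 23 were at 0 in every library. That annotation placed no snoRNA gene inside GAS5, so snoRNAs of GAS5 are not covered here. In 22 of the 25 the snoRNA shares bases with an annotated host exon, so reads over it overlap more than 1 gene, and libraries selected for poly(A) RNA hold few snoRNAs in any case. The 2 with counts, SNORD99 in SNHG12 and SNORA73B in SNHG3, share no host exon base. They were singled out after their values were seen. A read there lies in a host intron by annotation, and whether it came from the trimmed snoRNA or from unspliced host RNA was not tested.

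SNORD99 is a box C/D snoRNA of 74 bases at chr1:28578749-28578822 on the minus strand of GRCh38, shown because it is the intronic row with counts in the host of largest change, with the CTGA of box D in capitals.
SNORD99: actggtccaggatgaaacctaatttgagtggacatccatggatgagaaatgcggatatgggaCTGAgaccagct

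SNORD99 had 13, 7 and 7 counts in control, 38, 55 and 22 in FCCP, 1, 5, 1 and 5 in preconditioning and 4, 29 and 29 in preconditioning+FCCP libraries. It was high in the FCCP libraries and in preconditioning+FCCP 2 and 3. Against preconditioning it was higher in preconditioning+FCCP by 2.56 ± 0.68 (SE, adjusted p = 0.00783) and in FCCP by 3.90 ± 0.67 (SE, adjusted p = 0.000722), and in FCCP against control the log2 change was 2.25 ± 0.66 (SE, adjusted p = 0.0708).

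Set against its host, SNORD99 had 16.9, 52.0 and 37.7 counts per 1000 SNHG12 counts in FCCP libraries and 4.55, 11.4 and 6.37 in preconditioning+FCCP libraries. These 2 groups did not overlap in the ratio, but neither row was called between them. SNHG12 had a log2 change of 0.63 ± 0.49 (SE, adjusted p = 0.329). SNORD99 had -1.33 ± 0.62 (SE, adjusted p = 0.105), with overlapping CPM. Control libraries had 28.8, 24.2 and 13.8 and preconditioning libraries 4.88, 21.6, 6.49 and 15.8 per 1000. No test was run on this ratio, and with 1 to 55 counts in a library its counting error is large. SNORA73B had 17, 29 and 126 counts in control, 27, 123 and 41 in FCCP, 17, 20, 24 and 12 in preconditioning and 8, 50 and 25 in preconditioning+FCCP libraries. It was called in FCCP against preconditioning only, at 2.04 ± 0.68 (SE, adjusted p = 0.0266), and stood highest in control 3 and FCCP 2.

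**Figure D3:**
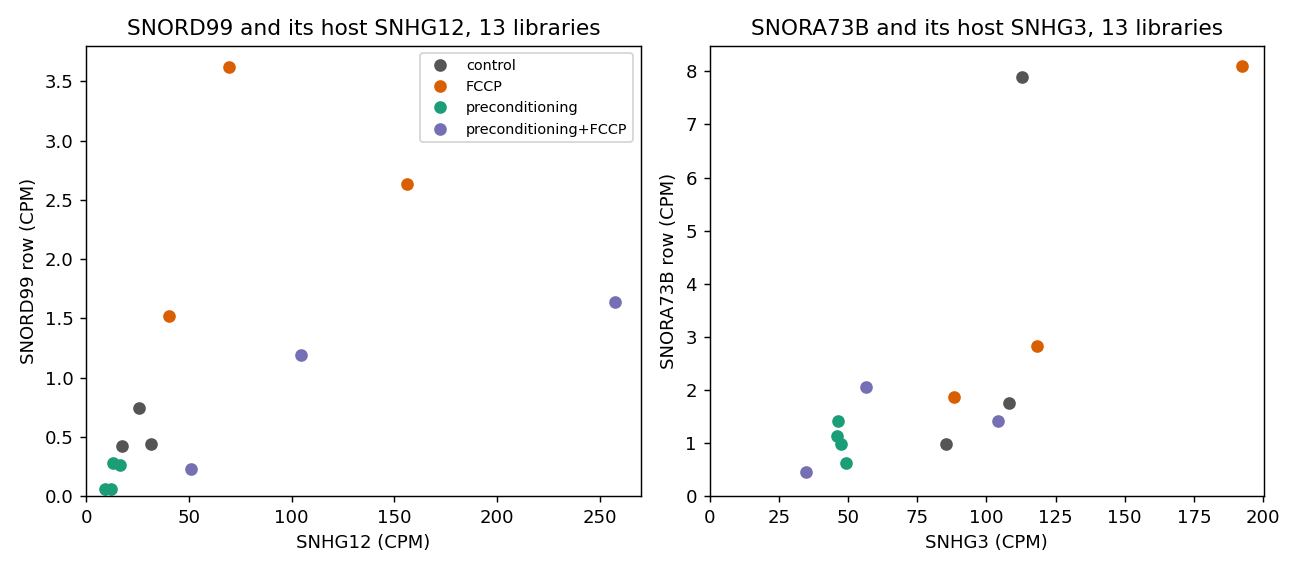
Level of the intronic snoRNA row (vertical axis, CPM) against its host gene (horizontal axis, CPM) in the 13 libraries, coloured by group, for SNORD99 with SNHG12 and SNORA73B with SNHG3. The FCCP libraries lie at 1.52 to 3.62 CPM of SNORD99 and the preconditioning+FCCP libraries at 0.232 to 1.64 CPM, at SNHG12 levels of 40.3 to 155.9 and 50.9 to 257 CPM.

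Other genes of the same biology were counted in lists in the contrast of preconditioning+FCCP with preconditioning, where 20.2% of all genes were higher and 19.2% lower. Of 15 tested noncoding snoRNA hosts outside the 10, 8 were higher and the other 7 were not called, with a median of 1.00. EPB41L4A-AS1 rose by 2.37 ± 0.33, ZFAS1 by 2.35 ± 0.39 and SNHG30 by 1.70 ± 0.31 (SE, adjusted p = 0.000103, 0.000312 and 0.000595). ZFAS1 had 5.15 to 11.3 CPM in preconditioning and 24.3, 37.1 and 77.3 CPM in preconditioning+FCCP libraries.

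Of 26 hosts that code for a protein, 7 were higher and 1 lower, with a median of 0.21. RPS12, a ribosomal protein gene, rose by 0.89 ± 0.22 (SE), and HSPA8, a constitutive chaperone, fell by 2.22 (SE 0.60). Of 16 tested mRNAs with a TOP start that act in translation outside the ribosome, 3 were lower (LARP1, PABPC1 and EIF3L) and the other 13 were not called, with a median of -0.15.

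Of 24 factors of nonsense-mediated decay, 10 were higher and 3 lower, with a median of 0.30. UPF3B, which links the exon junction complex to the decay machinery, rose by 1.63 ± 0.14 (SE, adjusted p = 4.41e-06), NCBP2, a subunit of the nuclear cap-binding complex, by 0.82 ± 0.14 and DCP2, the decapping enzyme, by 0.92 ± 0.18 (SE). UPF3B had 30.8 to 34.6 CPM in preconditioning and 91.3, 102 and 114 CPM in preconditioning+FCCP libraries. Of 15 tested other transcripts known as decay substrates, 7 were higher and the other 8 were not called, with a median of 0.47. They included GADD45B at 2.76 ± 0.33, ATF4 at 1.99 ± 0.33 and CARS1, a cysteinyl-tRNA synthetase, at 1.53 ± 0.22 (SE).

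Genes induced when translation initiation is held back had the largest share of higher calls among these lists: 10 of 11 were higher and the other was not called, with a median of 1.99. DDIT3, which codes for the transcription factor CHOP, had 6.75 to 8.06 CPM in preconditioning and 71.5, 66.5 and 110.0 CPM in preconditioning+FCCP libraries, a log2 change of 3.52 ± 0.43 (SE, adjusted p = 3.69e-05). PPP1R15A, which recruits the phosphatase of the initiation factor eIF2, rose by 2.27 ± 0.35 (SE). ATF4 is a member of this list and of the decay substrates and had 405 to 439 CPM against 1228, 1270 and 2482 CPM. Of the genes of this list singled out after their values were seen, ATF4 and DDIT3 were highest in preconditioning+FCCP 3, while TRIB3, which codes for a pseudokinase, was lowest of its group there, at 388, 327 and 203 CPM.

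**Figure D4:**
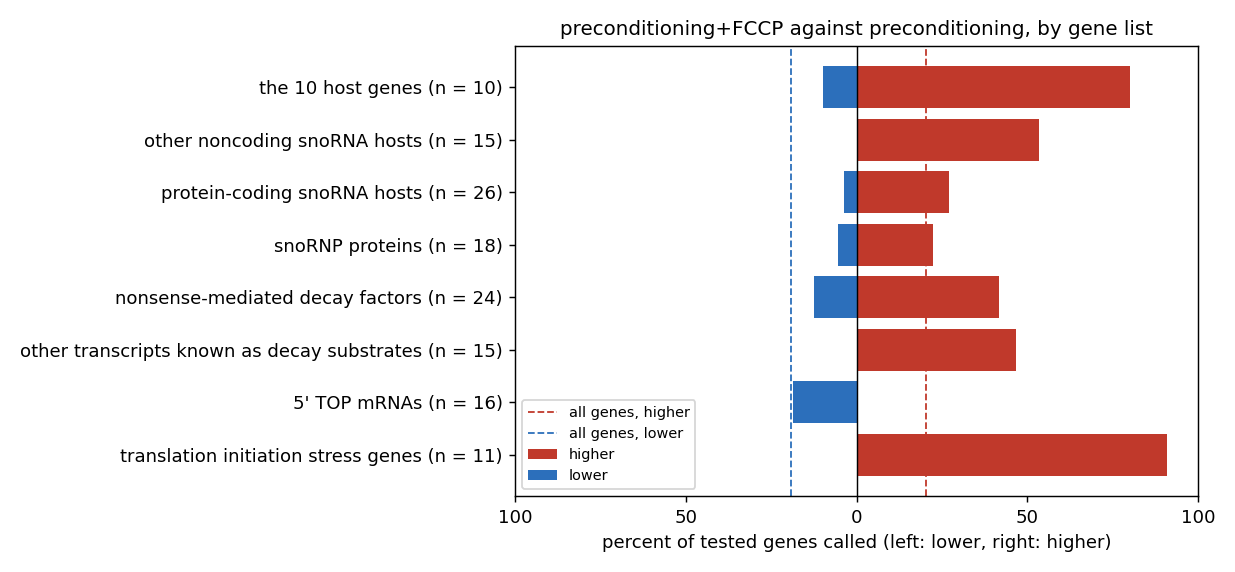
Percent of tested genes of each list called higher (red, to the right) or lower (blue, to the left) in preconditioning+FCCP against preconditioning, with dashed lines at 20.2% and 19.2% for all genes tested. The 10 host genes have 8 of 10 higher and 1 lower, the other noncoding hosts 8 of 15 higher, and the translation initiation stress genes 10 of 11 higher.

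In preconditioning against control, 5 of 15 other noncoding hosts were lower and the other 10 were not called (SNHG19 by -2.03 ± 0.41 and SNHG9 by -1.62 ± 0.44, SE), beside 13% of all genes lower and 10.5% higher. SNHG19 had 58.0, 61.0 and 12.6 CPM in control and 9.90 to 12.6 CPM in preconditioning libraries, and SNHG9 4.07, 2.98 and 1.31 CPM and 0.832 to 0.978 CPM. In both, control 3 lay near the preconditioning libraries. The decay factors had 6 higher and 3 lower of 24, and SMG6, the endonuclease of the pathway, rose by 1.40 ± 0.30 (SE). Of the initiation stress genes 4 of 11 were lower, with ATF4 at -1.11 ± 0.32 and DDIT3 at -1.43 ± 0.41 (SE). In FCCP against control, the other noncoding host with the smallest p was EPB41L4A-AS1 at 1.23 ± 0.36 (SE, adjusted p = 0.0678). GADD45B rose by 1.86 ± 0.35 (SE), while DHX34, a decay factor, fell by 1.14 (SE 0.26) and DDIT4, an initiation stress gene, by 1.35 (SE 0.35). Of the 11 initiation stress genes 0 were higher and 1 was lower there, beside 1.6% and 1.92% of all genes. Their median log2 change was 0.56, against -0.04 over all genes, with 7 of 11 above 0. The FCCP libraries were uneven: ATF4 had 2270, 965 and 758 CPM in FCCP 1 to 3 and 709 to 1006 CPM in control. DDIT3 had 71.5, 18.0 and 13.2 CPM and 17.5 to 21.4 CPM in control. In preconditioning+FCCP against control 6 of the 11 were higher and 1 was lower, beside 15% and 16.2% of all genes.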

How the data were processed

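Per the labels' protocols, RNA was isolated with a column kit, mRNA was selected by its poly(A) tail, with cDNA made from random hexamer primers. The labels describe a directional and a non-directional protocol without saying which was used. The deposited values are raw counts of reads per gene, 1 table per library, and the submitters' processing notes name HISAT2 and HTSeq and give hg19 as the build, with no versions or annotation release. Reads assigned to no gene did not enter: reads outside genes made up 2.13% to 5.20% of a library, those over several genes 11.0% to 12.4% and multiply aligned ones 3.16% to 11.5%.

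Counts were filtered with edgeR's default expression filter, scaled with TMM factors and tested in edgeR (4.0.16, under R 4.3.3) by quasi-likelihood, with the 13 libraries in 1 model of the 4 groups. Benjamini-Hochberg adjustment ran over all 16756 genes tested, and genes were called under 0.05. Adjusted p-values come from this test throughout. Standard errors were derived from the log2 change and the F statistic. Groups were taken from the treatment in the labels. Library depth, 14970803 to 20636229 gene counts, leaves the fewest counts for SNHG5, at about 1 CPM in its lowest libraries. Between libraries of a group the chi-square per degree of freedom was at least 3.21, so no library was counted as a copy of another.

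All 10 host genes are reported in every comparison. Of each other list up to 3 called genes with the smallest adjusted p were named per comparison. The members, the lists, the library sets and the alternatives were chosen with earlier results of these data known. Alternatives were DESeq2 (1.42.0) and its size factors, library totals alone, limma-voom (limma 3.58.1), no filter on low counts, mitochondrial genes left out, the compared groups alone, a replicate block, a term for the library set, fits within each set, a fit without control 3, FCCP 1 and preconditioning+FCCP 3, and each library left out in turn. The functions were tested on simulated data. Sequences are from RefSeq (GRCh38.p14) and, for SNORD99, from the GRCh38 reference with GENCODE 29.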

Additional observations from a re-analysis of the deposited data

Results flagged for a closer look

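For 6 of the 10 host genes the FCCP effect with preconditioning differed from the effect without it in the test of the difference itself (edgeR's quasi-likelihood test of the interaction, Benjamini-Hochberg adjustment over all genes). Of all genes 19% were called in this test. The count was 1, GAS5, without FCCP 2 or without FCCP 3, where 2086 of 17351 and 2076 of 17406 genes were called. The differences on the log2 scale were 1.54 for GAS5, 1.70 for SNHG1, 1.98 for SNHG6, 1.22 for SNHG8 and 1.64 for SNHG15, and -0.72 for SNHG16. In GAS5 the FCCP effect was 1.64 with preconditioning and 0.10 without it, in SNHG1 1.94 and 0.24, in SNHG6 1.71 and -0.27, in SNHG8 1.49 and 0.27, in SNHG15 1.49 and -0.15, and in SNHG16 -0.52 and 0.20. GAS5, SNHG1 and SNHG6 were also lower in preconditioning than in control, by 1.07, 1.19 and 2.09, and SNHG16 was higher, by 0.49. SNHG8 and SNHG15 were not called there. The interaction uses the same preconditioning and control libraries as that comparison, so the 2 sets of values are not independent.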

How the results depend on the processing

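In preconditioning+FCCP against preconditioning the 7 rises of SNHG12, SNHG7, GAS5, SNHG1, SNHG6, SNHG8 and SNHG15 stayed called under every alternative run. The count of called members there was 8 to 10 when single libraries were left out, beside 5027 to 7688 genes called. No host gene that was called changed direction under any alternative. FCCP against control had 2 called members, 1 with library totals alone, limma-voom or the set as a term, 0 with the compared groups alone, the replicate block or within the higher-share set, and 4 in a fit without the 3 libraries that stand out in their groups (control 3, FCCP 1, preconditioning+FCCP 3). Of all genes 590 were called in the main fit. With totals, limma-voom and the set term it was 395, 382 and 938. With the groups alone, the block and within the higher-share set it was 17, 53 and 31. Preconditioning+FCCP against FCCP had 2, then 4 with totals, 4 with no filter, 1 with the set term, 1 with the block, 0 with the groups alone and 6 without the 3 libraries. Of all genes 5976 were called in the main fit. With totals, no filter, the set term, the block and the groups alone it was 6210, 5978, 3629, 4902 and 4273. Preconditioning+FCCP against control had 3, then 5 with totals, 6 with no filter and 6 without the 3 libraries. Of all genes 5229 of 16756 were called in its main fit, 5360 with totals and 5367 of 36432 with no filter. Without the 3 libraries the directions were mixed. FCCP against control then had 3 members higher and 1 lower, beside 3113 of 17202 genes called. Preconditioning+FCCP had 2 higher and 4 lower against FCCP, beside 9276 genes called, and 4 higher and 2 lower against control, beside 8767. With the set as a term, preconditioning against control had 1 in place of 6 and FCCP against preconditioning 1 in place of 7. Of all genes 459 were called in place of 3950, and 353 in place of 6545. The share of the 10 genes in control was 0.0755% with mitochondrial genes left out.

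The replicate numbers did not pair the libraries: of 18 same-numbered pairs 1 correlated above 0.1 (range -0.20 to 0.158), as did 13 of 45 other pairs. With a replicate block preconditioning against control had 3 called members and the interaction 1 (GAS5), beside 1840 and 1897 of 16756 genes.

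Leaving out 1 library at a time gave 0 to 3 called members for FCCP against control, 7 throughout for FCCP against preconditioning, 1 to 8 for the interaction, 2 to 6 for preconditioning against control, 3 to 5 for preconditioning+FCCP against control and 0 to 5 against FCCP. Over all genes the calls ranged, in the same order, over 142 to 893, 5031 to 7663, 2013 to 4576, 1506 to 6057, 3098 to 6657 and 3848 to 7113. The shares ranged over 0.0674% to 0.0722% (control), 0.0805% to 0.102% (FCCP), 0.0358% to 0.0385% (preconditioning) and 0.0936% to 0.143% (preconditioning+FCCP).

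Values that changed sign belonged to genes not called in the main comparisons, and 1 of them was itself called (SNHG6 with the set as a term, adjusted p = 0.0187). With the set as a term they were -0.064 (GAS5), -0.035 (SNHG1) and 0.0046 (SNHG15) in FCCP against control, and for preconditioning+FCCP 0.76 (SNHG6) against FCCP and 0.014 (SNHG16) and 0.13 (SNHG6) against control. Without the 3 libraries they were -0.12 (GAS5) and -0.36 (SNHG1) in FCCP against control, -0.046 (SNHG15) in FCCP against preconditioning, -0.72 (SNHG3) for the interaction, 0.0090 (SNHG8) in preconditioning against control and -0.070 (SNHG3) in preconditioning+FCCP against preconditioning. Within the higher-share set they were 0.51 (SNHG15) in FCCP against control, and for preconditioning+FCCP 0.087 (SNHG5) and 0.71 (SNHG6) against FCCP and 0.19 (SNHG16), 0.15 (SNHG3) and 0.12 (SNHG6) against control. Within the lower-share set they were -0.27 (SNHG15), -0.066 (SNHG5) and 0.20 (SNHG6) against control and -0.043 (SNHG3) against preconditioning. Totals alone gave 0.018 (SNHG6) against FCCP and 0.17 (SNHG16) against control, and no filter 0.039 (SNHG16).

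Single libraries turned the sign over these ranges: in FCCP against control GAS5 -0.13 to 0.19, SNHG1 -0.33 to 0.51, SNHG15 -0.78 to 0.44, SNHG6 -0.66 to 0.075 and SNHG8 -0.15 to 0.56, in FCCP against preconditioning SNHG15 -0.050 to 0.82, for the interaction SNHG3 -0.44 to 0.43 and SNHG5 -1.03 to 0.12, and in preconditioning against control SNHG8 -0.46 to 0.013. For preconditioning+FCCP they were SNHG1 -0.15 to 1.06, SNHG12 -0.21 to 1.33, SNHG6 -0.83 to 0.20 and SNHG7 -0.27 to 0.54 against FCCP, SNHG16 -0.15 to 0.0043 against control and SNHG3 -0.073 to 0.75 against preconditioning.

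Library totals alone moved the median of all genes from -0.02 to 0.09 in preconditioning against control, from -0.04 to 0.16 in preconditioning+FCCP against control and from 0.01 to 0.19 against FCCP. Higher calls were then 2025 of 3669 against 1765 of 3950, 3487 of 5360 against 2511 of 5229, and 3981 of 6210 against 3007 of 5976, and 229 of 395 against 268 of 590 in FCCP against control. Over all settings called genes numbered 17 to 3113 in FCCP against control, 459 to 8405 in preconditioning against control, 252 to 8767 in preconditioning+FCCP against control, 3 to 9276 against FCCP and 5004 to 9097 against preconditioning, 353 to 9171 in FCCP against preconditioning and 1897 to 6421 for the interaction. Causes were not tested.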

Other observations

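Of 18 tested proteins that bind snoRNAs or assemble their particles, 4 were higher and 1 was lower in preconditioning+FCCP than in preconditioning, beside 20.2% and 19.2% of all genes, with a median log2 change of 0.25. ZNHIT3, an assembly factor of box C/D particles, rose by 1.29 ± 0.21 (SE, adjusted p = 0.000277), and NUFIP1, an assembly factor of the same particles, by 1.07 ± 0.33 (SE). Against FCCP alone, preconditioning+FCCP libraries had 2 higher and 4 lower of 18, beside 17.9% and 17.7% of all genes: NAF1, an assembly factor of box H/ACA particles, rose by 1.11 ± 0.22 (SE), while RUVBL2, an ATPase of the assembly complex, fell by 1.01 (SE 0.19) and NOP10, a core box H/ACA protein, by 1.15 (SE 0.26). In preconditioning against control SNU13, a core box C/D protein, was the single one called of 18, beside 23.6% of all genes, and fell by 1.11 (SE 0.23).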
